A study of Mus musculus with 4 samples.

Results

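Type I interferon response genes were read in dendritic cells (DCs) that carried or lacked the microRNA miR-142. The group was fixed as a list of 38 interferon-stimulated genes, with the 2'-5' oligoadenylate synthetase, RIG-I-like, Ifitm and Gbp families left out. A listed gene was measured when a probe set of the array carried its symbol and no other, and 36 of the 38 were measured, out of 19938 genes in all. Each of the 36 had 1 such probe set. Isg15, the ubiquitin-like protein that is attached to other proteins during the response, shares its probe set with another symbol, and no listed probe set names Ifi44, so neither has a value here.

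Bone marrow of C57BL/6 mice was cultured for 8 days in 200 ng/ml Flt3 ligand, the cytokine that drives DC development, and no interferon or stimulus is named in the labels. The genotypes were miR-142+/+ (wt) and miR-142-/- (ko). Cells sorted as B220- and CD11c+ were divided into CD4-equivalent DCs, which carried CD172 and CD11b with low CD24, and CD8-equivalent DCs, which carried CD24 with low CD11b and no CD172. Each of the 4 groups was measured on 1 Affymetrix array. The labels give no age or number of mice, nor say how the allele was made, and with no replicate array a difference between a pair of arrays has no replicate check and no p-value.

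Type I interferons bind the receptor made of Ifnar1 and Ifnar2, whose Janus kinases Tyk2 and Jak1 phosphorylate transcription factors of the STAT family. Of these, STAT2 joins IRF9 in the complex ISGF3, which binds the interferon-stimulated response element (ISRE) in front of its target genes. Their products block viral translation, RNA stability and budding, and some of them, such as the transcription factor IRF7 and the receptor inhibitor Usp18, strengthen or end the response. DCs also hold a low, constant level of these transcripts without infection.

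The deleted gene was checked first. Mir142 read 10.37 and 9.87 on the wt arrays of CD4- and CD8-equivalent DCs and 4.92 and 4.79 on the ko arrays, on the RMA log2 scale used throughout. Since the extent of the deletion is not given, this reading is a check of the genotype only where the probes fall inside it. The mature strands of this microRNA, from RefSeq on GRCm38.p6 (plus strand), are shown because they are the molecules missing in ko. They lie at chr11:87756867-87756887 and chr11:87756903-87756925, and capitals mark the seed, bases 2 to 8.
mmu-miR-142a-5p: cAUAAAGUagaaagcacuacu
mmu-miR-142a-3p: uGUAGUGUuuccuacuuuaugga

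The promoters of the response genes were searched for the ISRE core, GAAA followed by any 2 bases and GAAA again (TTTC, any 2 bases and TTTC on the other strand), on both strands in windows of 300 bases from 250 before the RefSeq start site to its first 50 transcribed bases. Of the 38 genes, 30 had such a window, and 11 of these 30 (36.7%) held the core, where 3.99% of 27025 genes with a window did. Counted by window, it was 33.3% of 39 windows of these genes against 3.44% of 32851. The core of the interferon-gamma activated site, TTCNNNGAA (its own reverse complement), was held by 5 of the 30 (16.7%), against 9.55% of all genes. A match is a string of letters and not a tested binding site.

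The 10 measured genes with an ISRE core are shown because their promoter windows hold letters that match it. Each line gives the stretch 5′ to 3′ on the strand of the gene, with the core in capitals.
Ifit1: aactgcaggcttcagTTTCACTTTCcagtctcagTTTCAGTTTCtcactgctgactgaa
Ifit3: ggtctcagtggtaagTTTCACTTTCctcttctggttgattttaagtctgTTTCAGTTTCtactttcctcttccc
Ddx60: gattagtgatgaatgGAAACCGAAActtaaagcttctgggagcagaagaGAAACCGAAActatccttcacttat
Rsad2: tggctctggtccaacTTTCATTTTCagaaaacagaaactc
Eif2ak2: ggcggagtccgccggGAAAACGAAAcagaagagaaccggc
Trim21: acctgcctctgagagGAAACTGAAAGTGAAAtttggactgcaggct
Trim30a: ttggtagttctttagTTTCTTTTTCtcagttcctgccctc
Stat2: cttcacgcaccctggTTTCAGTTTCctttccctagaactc
Slfn5: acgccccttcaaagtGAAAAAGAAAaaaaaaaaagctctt
Slfn8: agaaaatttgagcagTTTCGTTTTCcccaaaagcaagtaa

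On GRCm38.p6 these stretches lie at chr19:34640770-34640828 (plus strand) for Ifit1, chr19:34583358-34583431 (plus) for Ifit3, chr8:61928019-61928092 (plus) for Ddx60 and chr12:26456548-26456587 (minus) for Rsad2. The stretch of Eif2ak2 is chr17:78882530-78882569 (minus), that of Trim21 chr7:102565439-102565484 (minus), that of Trim30a chr7:104465205-104465244 (minus) and that of Stat2 chr10:128270261-128270300 (plus). Slfn5 lies at chr11:82951932-82951971 (plus) and Slfn8 at chr11:83020834-83020873 (minus). Ifit1 and Ifit3, neighbours on chromosome 19, carry the same pair of cores, TTTCACTTTC and TTTCAGTTTC, spaced differently. In Trim21 the cores overlap and lie within the first transcribed bases, as does the core of Eif2ak2, while that of Stat2 starts at base -222, counting the start site as 1.

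**Figure D1:**
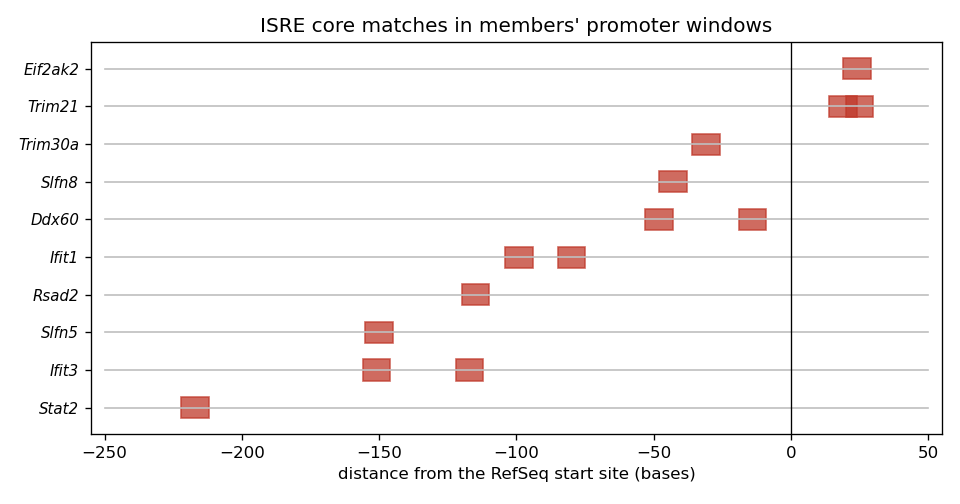
Positions of ISRE core matches (red boxes, 10 bases long) along the promoter windows of the 10 measured genes that hold one, against distance from the RefSeq start site in bases. Boxes run from -222 (Stat2) to the first transcribed bases (Eif2ak2, Trim21), and Ifit1, Ifit3, Ddx60 and Trim21 hold a pair.

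A floor of 5.68, the median of all probe sets with 1 symbol, was used to decide which values were compared. All 36 genes reached it on the wt CD4-equivalent array, 35 on the ko CD4-equivalent, 30 on the wt CD8-equivalent and 29 on the ko CD8-equivalent array, and 29 reached it on all 4. Their median level was 9.24, 8.83, 8.12 and 7.67 on these arrays in the same order. The wt CD4-equivalent array was the highest for 31 of the 36, where 26.6% of 10239 genes at the floor on any array had their highest value there. The ko CD8-equivalent array was the lowest for 29 of 36, against 23.6% of genes. The full order of wt CD4-, ko CD4-, wt CD8- and ko CD8-equivalent DCs, from high to low, held for 19 of 36 response genes and for 8.98% of all genes. Another 8 of 36 had wt above ko first, with both wt arrays over both ko arrays and CD4- over CD8-equivalent within each genotype, against 5.23% of genes. A lower level in sorted cells can come from fewer expressing cells or from less RNA per cell, and these arrays cannot tell the 2 apart.

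**Figure D2:**
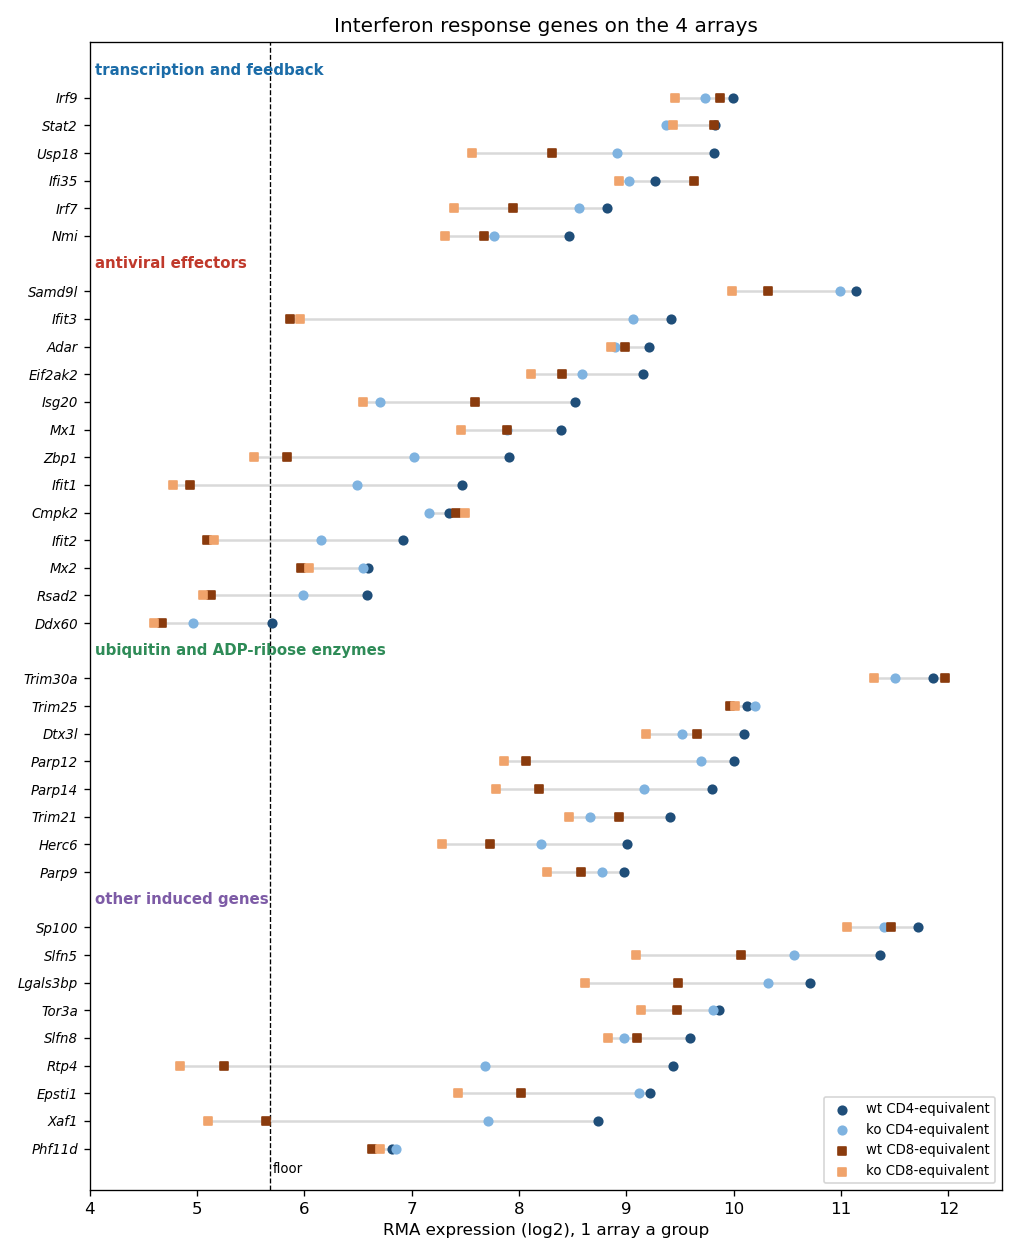
RMA expression (log2) of the 36 measured response genes on each array, grouped by role, with a grey line from the lowest to the highest array and the floor of 5.68 dashed. The wt CD4-equivalent array (dark blue) is the rightmost point for 31 genes, and for Ifit1, Ifit2, Rsad2, Ddx60, Rtp4 and Xaf1 neither CD8-equivalent array reaches the floor.

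The first comparison asked how loss of miR-142 bears on these genes in CD4-equivalent DCs. There 34 of 36 response genes read lower in ko than in wt, where 63.8% of 9978 genes compared did. After cyclic loess across the arrays it was 31 of 36 against 49.3%, with Mx2, Tor3a and Epsti1 turned to above 0. The median difference as deposited was -0.48, and that of all genes was -0.08. At least 1.5-fold lower were 15 of the 36, against 3.72% of all genes, and at least 2-fold lower were 3, against 0.952%. None of the 36 was 1.5-fold higher, against 3.98%, or 2-fold higher, against 1.39%. In CD8-equivalent DCs, 25 of the 30 response genes compared read lower in ko, against 49.3% of 9972 genes, with a median of -0.39 beside 0.004 for all genes. Of these, 7 were at least 1.5-fold lower, against 3.48%, and 1 at least 2-fold lower, against 1.00%, with none 1.5-fold higher, against 4.61%, or 2-fold higher, against 1.14%. The other 6 did not reach the floor in CD8-equivalent DCs of either genotype and have no informative difference there.

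The difference was of like size in the subsets where both could be read. Over the 29 genes above the floor on all 4 arrays, the median was -0.36 in CD4- and -0.40 in CD8-equivalent DCs. Across the 30 genes compared in both, Pearson's r between the differences was 0.60, given as a description, since the genes share arrays and are not independent. Of these 30, 25 read lower in ko in both subsets, against 38.1% of 9711 genes, 2 read higher in both (Trim25 and Phf11d, the latter not after quantile normalization) and 3 differed in sign. Isg20, Usp18 and Slfn5 were at least 1.5-fold lower in both, where 1.32% of genes were. Both ko arrays lay below both wt arrays for 11 of 36 genes, against 18.1% of all genes.

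With limma's additive model of genotype and subset, in which each subset counts as a repeat of the genotype comparison, 0 of the 36 were called after Benjamini-Hochberg adjustment over 10239 genes. The model called 6 lower genes (0.0586%) and 11 higher genes (0.107%) in all. At an unadjusted p under 0.05 the count was 22 of 36 lower, against 8.27% of all genes, and 0 higher, against 7.34%. The mean over the subsets was below 0 for 33 of 36, against 58.1%. The largest differences are therefore given as values, and no response gene passed this test for genotype.

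**Figure D3:**
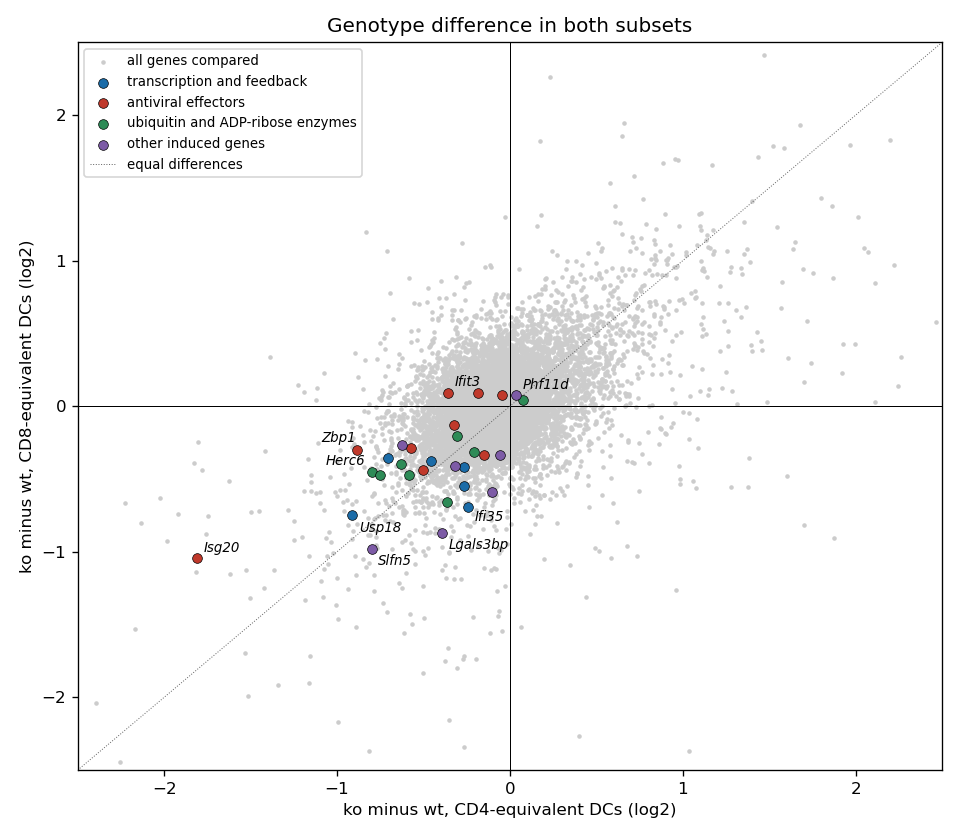
Difference ko minus wt (log2) in CD4-equivalent DCs (x axis) against CD8-equivalent DCs (y axis) for 9711 genes compared in both (grey) and 30 response genes coloured by role. Response genes fill the lower left, with Isg20 at -1.81 and -1.05 farthest out, and 17 of the grey genes lie outside the axes.

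Among the transcription factors and feedback genes, all 6 read lower in ko in both subsets, with medians of -0.36 and -0.48. Usp18, the protease that takes Isg15 off its targets and blocks signalling at Ifnar2, read 9.82 in wt and 8.91 in ko CD4-equivalent DCs and 8.31 and 7.56 in CD8-equivalent DCs. Its differences were -0.91 and -0.75 (mean -0.83 ± 0.12 (SE), limma adjusted p = 0.076). Each ko array lay below the wt array of its subset, but the ko CD4-equivalent array lay above the wt CD8-equivalent one.

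Stat2 and Irf9 differed by less. Stat2 read 9.83 and 9.82 on the wt arrays and 9.37 and 9.44 on the ko arrays, CD4- before CD8-equivalent, so that it was set apart by genotype and hardly by subset. Irf9 read 9.99 and 9.87 in wt and 9.73 and 9.46 in ko, again with both ko arrays below both wt arrays. Irf7, which amplifies interferon production, read 8.82 in wt and 8.56 in ko CD4-equivalent DCs and 7.94 and 7.39 in CD8-equivalent DCs, differences of -0.26 and -0.55. Nmi and Ifi35, partner proteins that bind each other and STAT and IRF factors, had their larger difference in different subsets. Nmi differed by -0.70 in CD4- and -0.36 in CD8-equivalent DCs, and Ifi35 by -0.24 and -0.69.

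Among 13 effectors against viral RNA, translation and budding, all 13 read lower in ko CD4-equivalent DCs (median -0.57; Mx2 turned to above 0 after either normalization), and 6 of 9 compared in CD8-equivalent DCs did (median -0.29). Isg20, an exonuclease that degrades RNA, had the largest genotype difference of all the response genes. It read 8.52 in wt and 6.71 in ko CD4-equivalent DCs, 3.51-fold lower, and 7.59 and 6.55 in CD8-equivalent DCs, 2.07-fold lower. Both ko arrays lay below both wt arrays (mean -1.43 ± 0.21 (SE), limma adjusted p = 0.075). By rank it was number 19 from the lowest of 9978 genes in CD4- and number 91 of 9972 in CD8-equivalent DCs.

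The Ifit genes, whose proteins bind viral RNA with foreign ends and halt its translation, lie side by side and differed unequally. Ifit1 read 7.47 in wt and 6.49 in ko CD4-equivalent DCs, a difference of -0.97, and 4.93 and 4.78 in CD8-equivalent DCs, below the floor. Ifit2 read 6.92 and 6.15 in CD4-equivalent DCs, a difference of -0.76, and 5.09 and 5.16 in CD8-equivalent DCs, again below it. Ifit3 read 9.42 and 9.06 in CD4-equivalent DCs, a difference of -0.36, and 5.87 and 5.96 in CD8-equivalent DCs, close above the floor. Ifit3 has a near-identical copy that its probes may also bind, so its values are uncertain in that respect.

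Zbp1, a sensor of Z-form nucleic acid that triggers cell death, read 7.91 in wt and 7.03 in ko CD4-equivalent DCs (-0.88) and 5.84 and 5.54 in CD8-equivalent DCs. Eif2ak2, which encodes the kinase PKR that stops translation on double-stranded RNA, read 9.16 and 8.58 in CD4- and 8.40 and 8.11 in CD8-equivalent DCs. Rsad2, which encodes viperin and makes a chain-terminating nucleotide, read 6.59 and 5.99 in CD4-equivalent DCs and stayed below the floor in CD8-equivalent DCs. Ddx60, a helicase, reached the floor only on the wt CD4-equivalent array (5.70, against 4.96 in ko), so its difference of -0.74 is set by that array alone.

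Mx1, a GTPase that traps viral nucleocapsids and whose gene is defective in most laboratory mouse strains, read 8.39 and 7.89 in CD4- and 7.89 and 7.46 in CD8-equivalent DCs, wt before ko. Its relative Mx2 differed by -0.05 and 0.07, signs that both turned after quantile normalization. Cmpk2, the nucleotide kinase next to Rsad2, read 7.34 and 7.16 in CD4- and 7.41 and 7.50 in CD8-equivalent DCs, with differences of -0.18 and 0.09, the latter below 0 after quantile normalization. Adar, which edits adenosine in double-stranded RNA, differed by -0.32 and -0.13, and Samd9l, a translation inhibitor, by -0.15 and -0.33.

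Of the 8 measured ubiquitin and ADP-ribose enzymes, 7 read lower in ko in each subset, with medians of -0.47 and -0.42. Herc6, the ligase that attaches Isg15 in mice, read 9.01 in wt and 8.21 in ko CD4-equivalent DCs and 7.73 and 7.29 in CD8-equivalent DCs. Trim21, a ligase that binds antibody-coated virus, read 9.41 and 8.66 in CD4- and 8.93 and 8.46 in CD8-equivalent DCs, with both ko arrays below both wt arrays (mean -0.61 ± 0.13 (SE), limma adjusted p = 0.138). Parp14 differed by -0.63 and -0.40, and the partners Dtx3l and Parp9, an E3 ligase and its ADP-ribosyltransferase, by -0.58 and -0.47 and by -0.21 and -0.32. Parp12 differed by -0.31 and -0.20. Trim30a, which dampens NF-kB signalling, differed by -0.36 and -0.66, though its paralogs lie beside it and may share probes.

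Trim25 was the exception. This ligase of the RIG-I pathway read 10.13, 9.97, 10.20 and 10.01 on wt CD4-, wt CD8-, ko CD4- and ko CD8-equivalent arrays, a span smaller than that of any other measured response gene but Phf11d, with differences of 0.07 and 0.04. Phf11d, of a cluster of paralogs that may share probes, was the other gene that read higher in ko in both subsets, with differences of 0.04 and 0.07.

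Of the 9 measured genes with other or mixed functions, 8 read lower in ko CD4-equivalent DCs (median -0.39) and 6 of 7 compared in CD8-equivalent DCs (median -0.41). Rtp4, a chaperone of receptor transport, read 9.43 in wt and 7.68 in ko CD4-equivalent DCs, 3.36-fold lower and number 23 from the lowest of 9978 genes. In CD8-equivalent DCs it read 5.26 and 4.84, below the floor. Xaf1, a partner of an inhibitor of apoptosis, read 8.74 and 7.71 in CD4-equivalent DCs, 2.04-fold lower, and 5.64 and 5.10 in CD8-equivalent DCs, under the floor. Its CD4-equivalent difference was under 2-fold after cyclic loess and after quantile normalization, where those of Isg20 and Rtp4 stayed past it.

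Slfn5 had the lowest adjusted p of the response genes for genotype. This Schlafen family member read 11.36 in wt and 10.56 in ko CD4-equivalent DCs and 10.07 and 9.09 in CD8-equivalent DCs, differences of -0.80 and -0.98 (mean -0.89 ± 0.12 (SE), limma adjusted p = 0.068). Slfn8, a paralog in the same cluster, differed by -0.62 and -0.27. Lgals3bp, a secreted galectin ligand, read 10.71 and 10.32 in CD4- and 9.48 and 8.61 in CD8-equivalent DCs, so that its genotype difference was -0.39 and -0.87. Epsti1 differed by -0.10 and -0.59, Sp100, a protein of nuclear bodies, by -0.32 and -0.41, and Tor3a, an ATPase of the endoplasmic reticulum, by -0.06 and -0.34.

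The genotype difference was set beside the promoter matches. Over the 10 measured genes with a core, the median genotype difference was -0.61 in CD4-equivalent DCs (from -0.97 to -0.36), and over the 7 of them that could be compared in CD8-equivalent DCs it was -0.38. Over the 18 measured genes with a window and no core, it was -0.31 in CD4-equivalent DCs (from -1.81 to 0.07), and -0.41 in CD8-equivalent DCs over the 16 compared. Isg20, with the largest difference, is among those without a core in any of its windows. These medians are a description with no test.

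The size of the genotype difference was then set between the subsets, as the difference in CD8- minus that in CD4-equivalent DCs. This takes the last degree of freedom of the design and has no test. Over the 29 genes at the floor on all arrays it was above 0, so that the CD4-equivalent difference lay further down, for 17 and below 0 for 12, where 39.4% of all genes lay below 0, and the median was 0.075 beside 0.069 for all genes. Over all 36, 24 were above 0, among them the 6 below the floor in CD8-equivalent DCs. Their median was 0.14 as deposited and 0.02 after cyclic loess, beside -0.02 for all genes. After cyclic loess 16 of the 36 lay below 0, against 53.5% of all genes. The values ran from -0.49 (Epsti1) to 1.33 (Rtp4). The 5 genes with the largest values included Rtp4, Ifit2 (0.83), Ifit1 (0.82) and Ddx60 (0.66), 4 genes with no informative difference in CD8-equivalent DCs. Among genes above the floor on all arrays Isg20 was highest (0.76). Lgals3bp (-0.47) and Ifi35 (-0.45) were the lowest after Epsti1.

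The second comparison asked how the subsets differ. In wt, 33 of 36 response genes read lower in CD8- than in CD4-equivalent DCs, where 45.2% of 9998 genes did, and the median was -0.81 beside 0.04 for all genes. At least 2-fold lower were 15 of 36, against 3.14% of genes, and 0 were 2-fold higher, against 2.10%. Of these 15, 6 lay below the floor in CD8-equivalent DCs and were compared only through their high CD4-equivalent values. Over the 29 genes at the floor on all arrays the count was 8 and the median -0.50 in wt, and 9 and -0.45 in ko. In ko, 33 of 35 compared read lower, against 37.2% of 10118 genes, with a median of -0.51 beside 0.11 for all genes. At least 2-fold lower were 13, against 3.90%, and 0 were 2-fold higher, against 3.39%. At 1.5-fold the counts were 21 in wt, against 7.33%, and 17 in ko, against 8.05%, and none was 1.5-fold higher, against 7.88% and 12.2%. Both CD8-equivalent arrays lay below both CD4-equivalent arrays for 24 of 36 genes, against 21.3% of all genes. Of the 35 compared in both genotypes, 31 read lower in both, against 28.9% of 9877 genes.

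limma called 19 of the 36 response genes for subset, all 19 lower in CD8-equivalent DCs, where 6.35% of 10239 genes were called lower. Of these, Ifit1, Ifit2, Rsad2, Rtp4 and Xaf1 entered the test only through CD4-equivalent arrays, and 13 of the 29 genes at the floor on all arrays were called. None was called higher, against 7.98%. At an unadjusted p under 0.05 it was 25 lower, against 13%, and 0 higher, against 20.3%, and the mean was below 0 for 33 of 36, against 40% of all genes. By role the calls were 3 of 6 transcription and feedback genes, 8 of 13 effectors, 3 of 8 ubiquitin and ADP-ribose enzymes and 5 of 9 other genes. The genotypes serve as the replicates in this test, and nothing in the labels says that the arrays came from separate cultures or animals. The p-values therefore rest on how far the subset difference varied between the genotypes, moderated by the variance of other genes. They hold no replicate error, and part of that variation may be technical.

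Of the genes at the floor on all 4 arrays, Ifit3 and Parp12 had the lowest limma adjusted p for subset. Ifit3 was 11.7-fold lower in the CD8-equivalent subset in wt and 8.57-fold in ko (mean -3.33 ± 0.15 (SE), limma adjusted p = 0.0023). Its CD8-equivalent values, 5.87 in wt and 5.96 in ko, lay close above the floor. Rtp4 and Xaf1 lay below the floor in CD8-equivalent DCs and entered the test only through their CD4-equivalent values, so their folds are given against the floor. Rtp4 was at least 13.5-fold lower in wt and 4.01-fold lower in ko, and Xaf1 at least 8.33-fold and 4.08-fold lower. Parp12, an ADP-ribosyltransferase that inhibits translation, was 3.85-fold and 3.58-fold lower (limma adjusted p = 0.0038) and lay above the floor on all arrays.

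Usp18 (mean -1.43, limma adjusted p = 0.0072), Parp14 (-1.50, 0.0072), Slfn5 (-1.38, 0.0077), Zbp1 (-1.78, 0.0091) and Lgals3bp (-1.47, 0.011) also fell from CD4- to CD8-equivalent DCs. So did Epsti1, Herc6, Irf7, Samd9l, Mx2, Eif2ak2 and Nmi, with limma adjusted p from 0.012 (Epsti1) to 0.048 (Nmi). Ifit1, Ifit2 and Rsad2 were also called, but only their CD4-equivalent values reached the floor, so their folds are given against the floor. Ifit1 was at least 3.45-fold lower in wt and 1.76-fold lower in ko. For Ifit2 these bounds were 2.36-fold and 1.39-fold, and for Rsad2 1.88-fold and 1.24-fold. The 17 genes not called included Stat2 and Irf9. Stat2 differed by -0.01 in wt and 0.06 in ko, the latter below 0 after cyclic loess and after quantile normalization, Irf9 by -0.12 and -0.27, and Ifi35 read 9.27 in CD4- and 9.63 in CD8-equivalent DCs of wt.

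**Figure D4:**
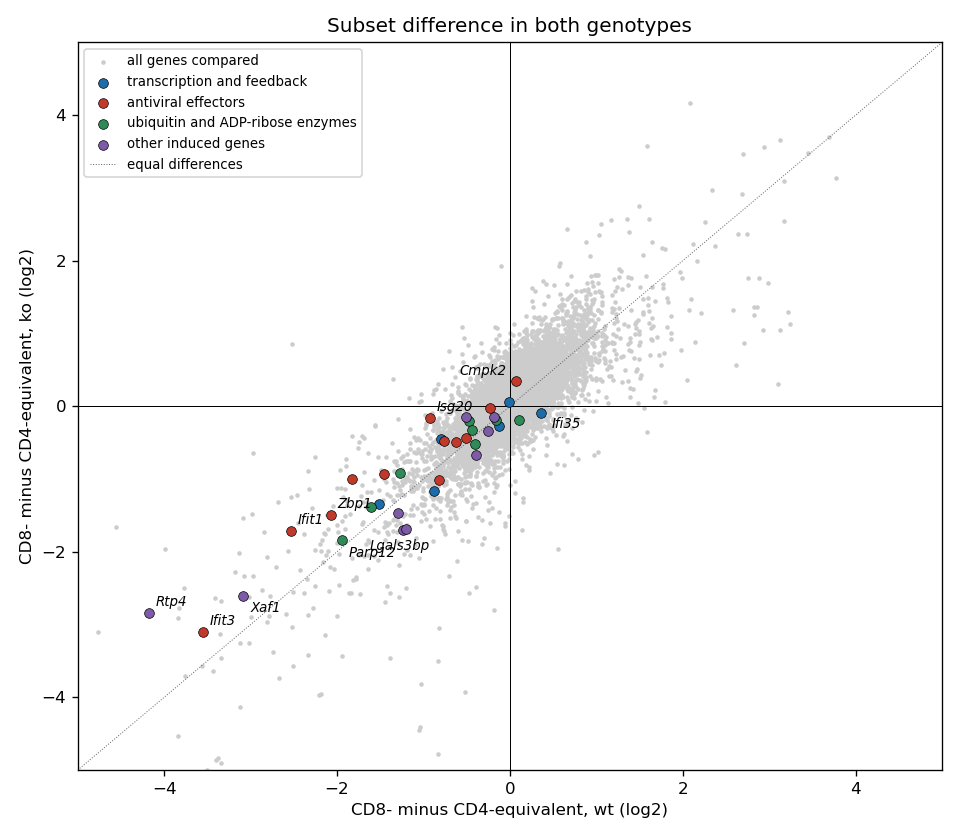
Difference CD8- minus CD4-equivalent DCs (log2) in wt (x axis) against ko (y axis) for 9877 genes compared in both (grey) and 35 response genes coloured by role. Response genes run along the diagonal from near 0 to Rtp4 (-4.18 and -2.84), Ifit3 (-3.55 and -3.10) and Xaf1 (-3.09 and -2.60), and 2 of the grey genes lie outside the axes. The CD8-equivalent values of Rtp4 and Xaf1 lie below the floor.

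The subset difference of single genes varied with genotype, with no test. Isg20 differed by -0.93 between subsets in wt and by -0.16 in ko, so that the ko arrays read almost alike. Irf7 went the other way, with -0.88 in wt and -1.16 in ko. These differences share their arrays with the genotype differences and are no independent evidence of them.

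The rest of the pathway was read from lists of ligands, receptors and regulators. Of 16 measured interferon ligands, 13 lay below the floor in every comparison, among them Ifnb1 at 4.63 to 4.72. The 3 above it were Ifna5 (7.11 to 7.33), Ifnz (6.10 to 6.42) and Ifnl2, which read 6.50 in wt and 7.10 in ko CD4-equivalent DCs and 6.45 and 6.54 in CD8-equivalent DCs. Probe sets of the interferon-alpha genes can share sequence, so single members are uncertain.

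Receptors and kinases differed by less than 1.5-fold between genotypes. Ifnar1 read 10.75 and 10.63 in CD4- and 10.68 and 10.71 in CD8-equivalent DCs, wt before ko, and Ifnar2 stayed between 12.49 and 12.56. Jak1 differed between genotypes by -0.35 and -0.11 and Tyk2 by -0.15 and -0.27. Of the 8 compared, 4 read lower in ko in each subset, against 63.8% of genes in CD4- and 49.3% in CD8-equivalent DCs.

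Of 12 STAT, IRF and inhibitor genes compared, 9 read lower in ko in each subset, with medians of -0.20 and -0.14. Over all genes it was 63.8% in CD4- and 49.3% in CD8-equivalent DCs. Irf3, which starts interferon transcription, differed by -0.43 and -0.29 and Irf1 by -0.11 and -0.25. The inhibitor Socs3 was 1.67-fold lower in ko CD4-equivalent DCs (-0.74). Irf8, a factor of CD8-equivalent and plasmacytoid DCs, was the gene past 2-fold, with differences of 1.29 in CD4- and 0.11 in CD8-equivalent DCs.

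Of 10 genes for the induction of interferon, 0 were 2-fold different between genotypes, and their medians were -0.04 in both subsets. Tlr3, the receptor for double-stranded RNA that marks CD8-equivalent DCs, came closest with 0.98 in CD4- and -0.50 in CD8-equivalent DCs. limma called 0 genes of these 4 pathway lists for genotype, where 0.0586% of 10239 genes were called lower and 0.107% higher. At an unadjusted p under 0.05, 4 of 12 STAT, IRF and inhibitor genes were lower, against 8.27% of all genes. For subset it called Tlr3 higher in CD8-equivalent DCs (mean 2.11, limma adjusted p = 0.025), where 7.98% of all genes were called higher. It called lower the DC factor Irf4 (-2.70, 0.0029), Socs3 (-0.96, 0.028) and the nucleic acid sensors Tlr7 (-0.72, 0.026) and Tlr9 (-0.69, 0.036). These were 2 of 12 STAT, IRF and inhibitor genes and 2 of 10 induction genes, against 6.35% of all genes.

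Markers of other cells differed beside the response genes. On the ko CD4-equivalent array 5 of 10 markers of CD8-equivalent DCs compared were at least 2-fold higher than in wt, against 1.39% of genes. Clec9a read 7.78 in wt and 10.85 in ko there. Cadm1 read 7.22 and 9.89, against 7.36 and 8.18 in CD8-equivalent DCs, so that it hardly set the wt subsets apart. Of the 10, Batf3 and Wdfy4 read lower (-0.04 and -0.29) and Naaa hardly differed (0.01). The summed linear level over 11 markers was 12441 and 20142, against 30734 and 29170 in CD8-equivalent DCs. Of 10 CD4-equivalent DC markers compared, 2 were at least 2-fold lower in ko CD4-equivalent DCs, against 0.952% of genes, and 1 higher, against 1.39%. Their summed level over 12 genes was 21984 in wt and 21584 in ko. On the ko CD4-equivalent array 10 of 13 neutrophil markers compared were at least 2-fold higher than in wt, against 1.39% of genes. Csf3r and Mmp8 went the other way, from 7.83 in wt to 7.09 in ko and from 8.48 to 7.79. The summed linear level over 14 neutrophil genes was 4496 on that array, against 1171 in wt CD4-, 667 in wt CD8- and 885 in ko CD8-equivalent DCs. Of the 14, 13 reached the floor on the ko CD4-equivalent array and 1, 5 and 2 on the wt CD8-, wt CD4- and ko CD8-equivalent arrays. Markers of plasmacytoid DCs, the cells known for making large amounts of type I interferon, were also read. Of 10 compared, 3 were at least 2-fold higher on the ko CD4-equivalent array, against 1.39% of genes. Their summed level over 11 genes was 6125 in wt and 11656 in ko CD4-equivalent DCs, and 14827 and 17125 in CD8-equivalent DCs.

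Monocyte and macrophage markers were at least 2-fold lower for 6 of 9 compared in ko CD8-equivalent DCs, against 1% of genes. Their summed level over 12 genes was 3311 there, against 8560 in wt CD8- and 15624 and 14345 in wt and ko CD4-equivalent DCs. F13a1 of the same list went the other way, at 5.22 in wt and 7.48 in ko CD8-equivalent DCs. In ko CD4-equivalent DCs 2 of 10 compared were at least 2-fold higher (Chil3 and C1qb), against 1.39% of genes. Adgre1 was 2.92-fold lower there, the 1 marker at least 2-fold lower, against 0.952%. Of the B cell and the T and NK cell markers, Cd79b alone reached the floor on all arrays. Nkg7 reached it on the CD8-equivalent arrays, and Cd3d, Cd3e, Cd3g, Ncr1, Cd79a and Ms4a1 on none. The B cell marker Ebf1 reached it only on the ko CD8-equivalent array, at 5.69 against 4.86 in wt CD8-equivalent DCs. The part of these cell mixtures in the differences of the response genes was not tested. All 7 DC genes of the list reached the floor on all arrays, with Itgax at 10.52 to 11.30 and Flt3 at 11.56 to 11.90. Of the 7, 6 read lower in ko CD4- and 5 in ko CD8-equivalent DCs, against 63.8% and 49.3% of genes. Among them were Zbtb46 (-0.60 and -0.36) and Ciita (-0.52 and -0.61), as far down as many response genes. The genes of the gate markers CD172 and CD11b, Sirpa and Itgam, were lower in CD8-equivalent DCs of both genotypes. That of CD24, Cd24a, read 10.98 in wt and 11.98 in ko CD4-equivalent DCs and 12.76 and 12.72 in CD8-equivalent DCs, so that it was 2.01-fold higher on the ko CD4-equivalent array and closer there to the CD8-equivalent level. Cd4 itself read 4.64 to 4.73 and Esam 4.30 to 4.47, below the floor on every array.

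**Figure D5:**
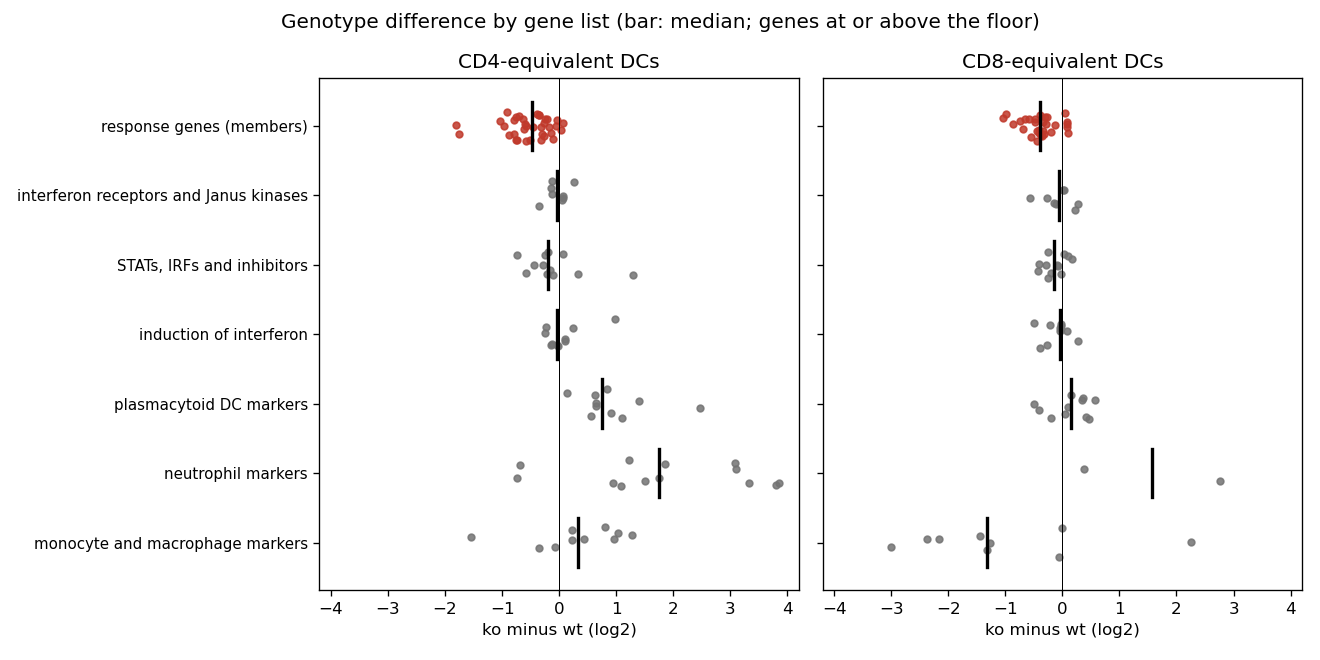
Difference ko minus wt (log2) for each gene at or above the floor, by list, in CD4-equivalent DCs (left) and CD8-equivalent DCs (right), with a black bar at the list's median. Response genes (red) lie mostly left of 0 in both panels, receptors, kinases and induction genes centre on 0, and in CD4-equivalent DCs 11 of 13 neutrophil and all 10 plasmacytoid markers lie to the right.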

How the data were processed

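Values were the series' deposited table of log2 expression, 1 value per probe set and array, made by the authors with RMA and Partek per the submitters' processing notes. Versions and later steps are not given in the sources read, and the log base was inferred from the range of 3.52 to 14.3. The scale and centring were not checked against scanner values, and the column medians ran from 5.87 to 5.94. The number of arrays, 1 a group, limits the precision. Values below the floor, probes that may bind paralogs and the choice of processing also limit what single genes show.

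Of 35399 probe sets, 21789 had 1 symbol in GEO's platform annotation, 1621 several and 11989 none. The probe set with the highest mean stood for a gene. All 36 measured response genes matched RefSeq (GRCm38.p6) by gene ID. A difference was taken where at least 1 of both values was at or above the floor. limma 3.58.1 in R 4.3.3 (lmFit, eBayes) fitted genotype plus subset over 10239 genes, two-sided, threshold 0.05, with 1 residual and 3.98 prior degrees of freedom. Tested on simulated data of 10239 genes for the genotype effect, limma recovered 84 of 100 genes changed 2-fold. It recovered 98 of 100 changed by 2 log2 units, and there were 13 false calls. Whether these counts hold for the measured arrays was not tested. On those arrays 17 genes were called for genotype, and Isg20, with a mean of -1.43, was not (limma adjusted p = 0.075). Every member may be named, those with the 5 lowest and 3 highest differences of each comparison among them, and pathway genes past 2-fold or called, plus Ifnar1, Ifnar2, Jak1, Tyk2, Irf1, Irf3 and Irf8. Another gene of that rule is not reported here. Members and lists were chosen with earlier results of these data known. Alternatives were cyclic loess, quantile normalization, no floor, a floor raised by 1, the mean of a gene's probe sets, and a trended and robust prior.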

Additional observations from a re-analysis of the deposited data

Results flagged for a closer look

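For 6 response genes the direction of a difference was opposite in the groups compared, with 1 array in each, and the gap between the directions was not tested. Ifit3, Mx2 and Cmpk2 read lower in ko in CD4-equivalent DCs and higher in ko in CD8-equivalent DCs, and the differences of the subsets were 0.45, 0.12 and 0.28 apart. Between subsets, Stat2 read lower in CD8-equivalent DCs in wt and higher in ko, 0.075 apart. After cyclic loess, quantile normalization or both, the signs of Mx2, Cmpk2 and Stat2 turned. For Trim30a and Ifi35 the CD8-equivalent array was the higher in wt and the lower in ko, with gaps of -0.30 and -0.45.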

How the results depend on the processing

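No response gene was called for genotype as deposited, after cyclic loess, after quantile normalization, without the floor or with the mean of a gene's probe sets. With the floor raised by 1, 1 was called (Slfn5, adjusted p = 0.047), and 4 were with a trended and robust limma prior (Slfn5 with 0.011, Isg20 with 0.019, Usp18 with 0.024 and Trim30a with 0.040), all lower in ko. Over all genes the genotype calls were 17 as deposited, 72 after quantile normalization, 3 without the floor, 120 with the floor raised and 307 with the trended and robust prior. Subset calls over all genes were 1467, and 946 without the floor, where Ifit2, Mx2, Eif2ak2 and Nmi were lost (adjusted p from 0.055 to 0.077). Mx2 was also lost with the trended prior (0.056). Other settings added subset calls among the response genes. They added 1 after cyclic loess, 1 after quantile normalization, 1 with the floor raised and 3 with the trended and robust prior. The median subset difference in ko was -0.51 as deposited and -0.67 after cyclic loess, which also moved the median of all genes there from 0.11 to 0.01. The count of response genes with a difference of differences of 1.5-fold or more below 0 went from 0 to 1 after cyclic loess and to 1 after quantile normalization. The mean genotype difference of Mx2 turned to -0.0013 after quantile normalization, and the mean subset difference of Stat2 to -0.046 after cyclic loess and -0.019 after quantile normalization. The cause was not tested. Of single differences, 3 near 0 turned sign after cyclic loess in the CD4-equivalent genotype comparison and 3 after quantile normalization in the CD8-equivalent one. The medians of the response genes kept their direction under every alternative run. No paired analysis was possible because the labels give no replicate numbers to pair by. The genotype test already compares ko with wt within each subset, and leaving out an array leaves no residual degree of freedom.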
